A study of Caenorhabditis elegans with 2 samples.

Results

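The genes described here are 10 genes of the heat shock response of the nematode Caenorhabditis elegans, and the measurement is where the chromatin protein HMG-1.2 was recovered on their DNA. They are hsp-16.1, hsp-16.11, hsp-16.2, hsp-16.41, hsp-16.48 and hsp-16.49, which encode small heat shock proteins, the Hsp70 genes hsp-70, F44E5.4 and F44E5.5, and hsf-1, which encodes the transcription factor of the response. They were listed by name, out of 19973 nuclear protein-coding genes, by a rule that uses no peak value but was written with results of these data known. Chromatin immunoprecipitation followed by sequencing (ChIP-seq) was done on whole young adults, 65 h old, of strain RW12210. All animals carried hmg-1.2::TY1::EGFP::3xFLAG, a tagged allele made by a CRISPR insertion at the hmg-1.2 locus on chromosome III. The labels describe an immunoprecipitation with an antibody to GFP, while their antibody field reads hmg-1.2. Stages were matched by bleaching and L1 starvation, and the labels name no heat treatment. There was 1 group of 2 biological replicates, so no conditions were compared, and the libraries pool all tissues of whole animals. Nothing in the labels tells whether these were separate cultures, and control libraries were not analysed here.

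HMG-box proteins bind DNA in the minor groove and bend it, mostly with little preference for a particular sequence. Heat shock genes are switched on by HSF-1, a transcription factor that binds heat shock elements, which are arrays of the sequence GAA and its complement TTC in alternating orientation. In C. elegans the Hsp70 genes and the hsp-16 genes are low in unstressed animals and are strongly induced by heat. Hsp70 proteins refold other proteins at the cost of ATP, and small heat shock proteins hold unfolding proteins in a soluble state without ATP. The hsp-16 genes stand in pairs that are read in opposite directions from 1 shared promoter region, so a single peak can belong to both genes of a pair.

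The 4 sequences below show the DNA that the results turn on, from the RefSeq genome of build WBcel235 (ce11), all on the plus strand. Capitals mark every base inside a heat shock element, here a match to GAANNTTC or TTCNNGAA, each of which is its own reverse complement. Neighbouring matches can overlap, and a match that ran past the end of a sequence is not marked. The first sequence is the 281 bases around the summit of the peak between F44E5.4 and F44E5.5, chrII:11759349-11759629, with 14 matches. The second is the whole interval of 220 bases between the 5′ ends of hsp-16.2 and hsp-16.41, chrV:1804958-1805177, with 3 matches. The next is the 220 bases before hsp-16.48, chrV:9087911-9088130, where no peak was found, with 2 matches. The same 220 bases, read on the minus strand of chrV:9089767-9089986, precede hsp-16.49. The last is the middle of a peak between the 3′ ends of hsp-16.48 and hsp-16.49, chrV:9088819-9088969, with 0 matches.
F44E5.4/F44E5.5: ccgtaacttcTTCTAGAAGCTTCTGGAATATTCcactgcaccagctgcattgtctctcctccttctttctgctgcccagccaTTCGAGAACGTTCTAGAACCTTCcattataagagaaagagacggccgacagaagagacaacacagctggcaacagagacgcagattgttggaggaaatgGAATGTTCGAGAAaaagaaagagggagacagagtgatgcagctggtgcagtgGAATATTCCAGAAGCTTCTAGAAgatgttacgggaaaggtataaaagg
hsp-16.2/hsp-16.41: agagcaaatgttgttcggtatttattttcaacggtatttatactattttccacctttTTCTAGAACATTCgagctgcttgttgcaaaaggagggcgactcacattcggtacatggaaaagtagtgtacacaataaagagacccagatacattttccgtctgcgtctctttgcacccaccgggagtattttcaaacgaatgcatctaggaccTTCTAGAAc
hsp-16.48: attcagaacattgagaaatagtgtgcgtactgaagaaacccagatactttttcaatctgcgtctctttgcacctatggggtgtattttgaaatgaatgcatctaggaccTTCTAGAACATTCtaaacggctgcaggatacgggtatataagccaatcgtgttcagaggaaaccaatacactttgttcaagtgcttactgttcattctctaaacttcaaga
convergent peak: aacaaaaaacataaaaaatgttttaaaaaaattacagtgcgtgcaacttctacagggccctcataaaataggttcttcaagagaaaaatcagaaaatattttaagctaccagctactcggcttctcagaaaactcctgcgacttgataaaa

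HMG-1.2 peaks lay at the promoters of 5 of the 10 genes, namely F44E5.4, F44E5.5, hsp-16.2, hsp-16.41 and hsp-70. These are the genes of the authors' conservative list of 4149 peaks that had a summit, the highest point of a peak, from 500 bp upstream to 100 bp downstream of an annotated 5′ end. Of all protein-coding genes, 9.68% met that rule in the conservative list. The same 5 genes met it in the authors' other thresholded list of 6058 peaks, against 13.7% of all genes, and in the list of 5333 peaks from replicate 2 alone, against 13.3%. In the list of 3340 peaks from replicate 1 alone, 4 of the 10 genes met it, all but hsp-70, against 6.91% of all genes. Because F44E5.4 shares its peak with F44E5.5, and hsp-16.2 with hsp-16.41, these calls rest on 3 peaks.

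With a wider window, from 2000 bp upstream to the gene end, more of the genes had a peak. In the conservative list 8 of the 10 overlapped one, all but hsp-16.48 and hsf-1, against 20.2% of all protein-coding genes. The 8 genes do not stand for 8 separate peaks. F44E5.4 shares its peak with F44E5.5, hsp-16.2 with hsp-16.41, and hsp-16.1 with hsp-16.11. The peak in the hsp-16.49 window lies beyond the 3′ end of its partner hsp-16.11. The other thresholded list gave all 10 genes, against 27.4%. Replicate 1 gave 8, all but hsp-70 and hsf-1, against 16.21%. Replicate 2 gave 7, all but hsp-16.1, hsp-16.11 and hsp-16.48, against 25.8%. The peaks that only the wider window reached had summits 998 bp or more upstream of the 5′ ends. The counts are small and no test was made on them, because the genes were named with results of these data known.

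The annotation placed 8 of the genes in 4 divergent pairs, and 2 of these pairs had a summit between their 5′ ends. The pairs were F44E5.4/F44E5.5 and hsp-16.2/hsp-16.41 in each of the 4 thresholded lists. The pairs hsp-16.1/hsp-16.48 and hsp-16.11/hsp-16.49 had none in any of them. Of 2560 divergent pairs of protein-coding genes with 5′ ends up to 2000 bp apart, 20.9% had a summit between them in the conservative list, 28% in the other thresholded list, 14.7% in replicate 1 and 28% in replicate 2. The intervals of the heat shock pairs were short, at 350, 220, 348 and 310 bp in the order named here. Among the 475 pairs of the genome that stand 200 to 400 bp apart, a range chosen after the values were seen, 116 (24.4%) had a conservative summit.

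**Figure D1:**
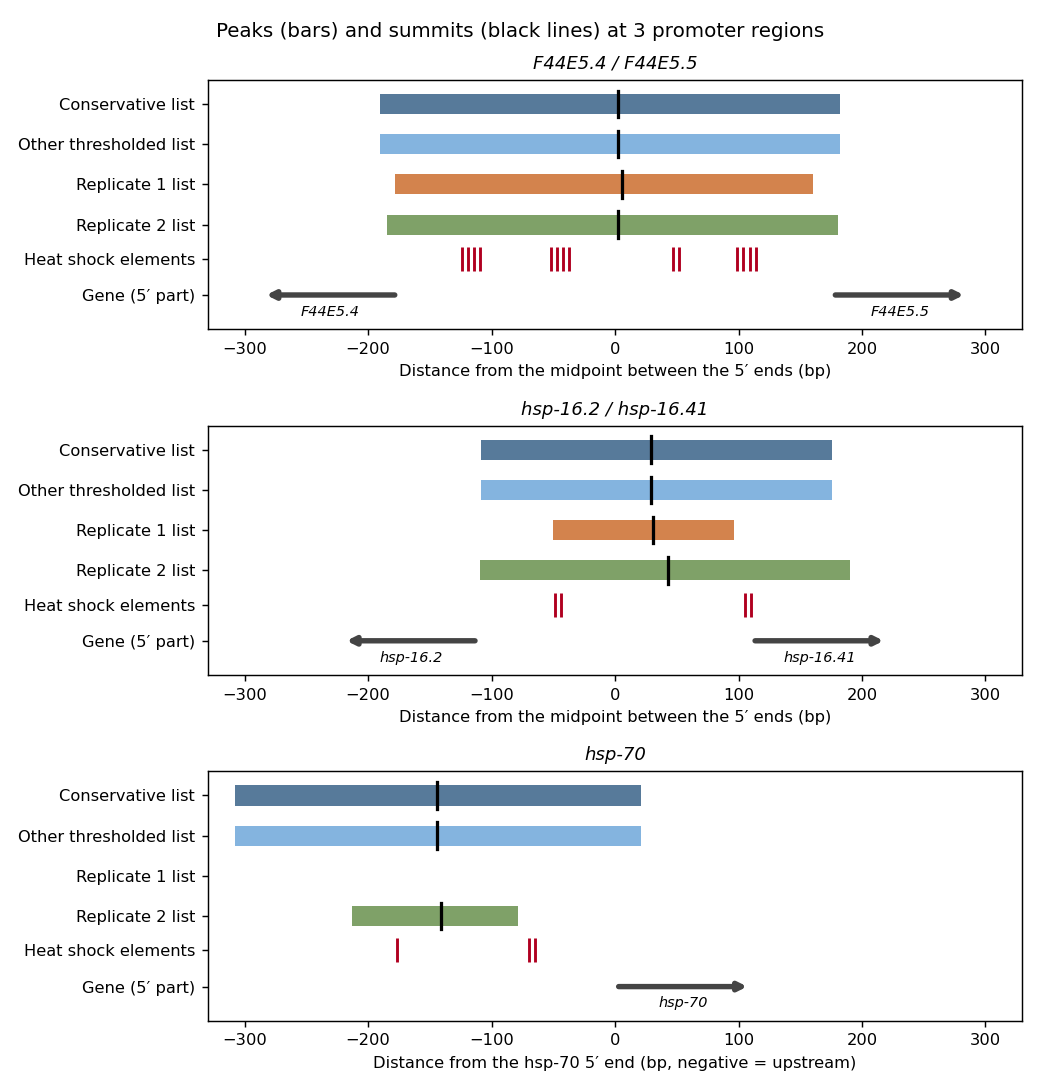
Peaks and summits at the promoters of F44E5.4/F44E5.5, hsp-16.2/hsp-16.41 and hsp-70 in the 4 thresholded lists, with heat shock elements as red ticks; the horizontal axis is the distance in bp from the midpoint between the 5′ ends or, for hsp-70, from its 5′ end. Every bar at the 2 divergent pairs covers the midpoint, and the hsp-70 row of replicate 1 is empty.

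The strongest peak lay between F44E5.4 and F44E5.5. These genes encode Hsp70 proteins with identical coding sequences, 100% over 1935 bp, and lie on chromosome II, at 11757107 to 11759311 on the minus strand and at 11759662 to 11761861 on the plus strand. The conservative peak ran from 11759296 to 11759669 and filled the whole interval of 350 bp between the 5′ ends. Its authors' signal of 3121 was number 28 of 4149 in that list, in the top 0.675%. Among the 535 divergent pairs with a conservative summit between their 5′ ends, it was number 6 by signal.

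The peak between F44E5.4 and F44E5.5 was high in both replicates' own lists. In replicate 1 it had a signal of 1031 and was number 66 of 3340, in the top 1.98%. In replicate 2 it had a signal of 2113 and was number 19 of 5333, in the top 0.356%. Signals of different lists are on scales that are not stated, so only the places within each list are described. The summits of the replicates were 3 bp apart in position, at 11759492 in replicate 1 and 11759489 in replicate 2. They lay -179.5 ± 2.12 bp from the 5′ end of F44E5.4 and -171.5 ± 2.12 bp from that of F44E5.5 (SD, n = 2), where a negative distance is upstream. No list, thresholded or ranked, had a summit inside either gene body. Of the 50-base stretches of these genes, 98.1% and 97.9% occur at another place in the genome, against 1.66% of those in the interval between them.

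The peak between hsp-16.2 and hsp-16.41 was the second by signal. hsp-16.2, whose promoter is widely used to drive a fluorescent reporter of stress in living worms, lies on chromosome V at 1804334 to 1804957 on the minus strand. hsp-16.41, which encodes a small heat shock protein of the other hsp-16 type, lies at 1805178 to 1805875 on the plus strand. Their coding sequences were 56.7% identical. The conservative peak ran from 1804959 to 1805243, with a signal of 998.1, number 344 of 4149, in the top 8.29%. It was number 88 by signal among the 535 divergent pairs with a summit.

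The replicates placed the hsp-16.2/hsp-16.41 peak differently within their lists. In replicate 1 its signal was 148.5, number 980 of 3340, in the top 29.3%. In replicate 2 its signal was 842.4, number 253 of 5333, in the top 4.74%. The peak was narrower in replicate 1, at 148 bp, than in replicate 2, at 301 bp. The summits were at 1805098 in replicate 1 and 1805110 in replicate 2, so they lay -147 ± 8.49 bp from the 5′ end of hsp-16.2 and -74 ± 8.49 bp from that of hsp-16.41 (SD, n = 2). The interval holds no 50-base stretch with a copy elsewhere. No list had a summit inside either gene.

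hsp-70, the third promoter with a peak, encodes a heat-inducible cytosolic Hsp70 whose coding sequence was 80.3% identical to those of F44E5.4 and F44E5.5. It lies on chromosome I at 9320325 to 9322519 on the minus strand, within an intron of uggt-2, a gene of the other strand. The conservative peak ran from 9322498 to 9322827 with its summit 144 bp upstream of the hsp-70 5′ end, still inside the uggt-2 intron. Its signal of 224.8 was number 2178 of 4149, close to the list's median of 240. In the other thresholded list the same peak was number 2258 of 6058.

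The hsp-70 promoter peak was in the thresholded list of replicate 2 but not in that of replicate 1. In replicate 2 it was 135 bp wide with a signal of 197.2, number 1766 of 5333, and its summit lay 141 bp upstream. In replicate 1 the ranked list, which holds peaks that miss the threshold too, had a peak from 9322419 to 9322738 with its summit 60 bp upstream, a signal of 38.77 and a score of 696. The lowest score in the thresholded lists was 830, out of a highest possible 1000. The score comes from the irreproducible discovery rate, a measure of how well a peak's place is kept between lists. Each of the 3 ranked lists also had summits inside the hsp-70 gene, 3 over both replicates, 2 in replicate 1 and 2 in replicate 2, none with a score above 309.

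A further peak stood just beyond the 3′ end of hsp-70, outside the window. In the conservative list its near edge was 27 bp past the gene, with a signal of 159.3, number 2886 of 4149. In replicate 1 its near edge was 17 bp past the gene, at number 1701 of 3340. In replicate 2 it was 96 bp past, at number 3840 of 5333. Its conservative summit lay 44 bp from the nearest tRNA gene, and the replicate 1 summit lay 29 bp from the same one. The replicate 2 summit lay 36 bp from a different tRNA gene. Whether the peak belongs to hsp-70, to uggt-2 or to either tRNA gene was not tested.

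The other 4 hsp-16 genes lie together on chromosome V, and none had a promoter summit. hsp-16.1 and hsp-16.48 form 1 divergent pair, at 9087293 to 9087782 on the minus strand and 9088131 to 9088617 on the plus strand. hsp-16.49 and hsp-16.11 form the other, at 9089280 to 9089766 on the minus strand and 9090077 to 9090604 on the plus strand. Each encodes a small heat shock protein. The coding sequences of hsp-16.1 and hsp-16.11 were 100% identical over 435 bp, as were those of hsp-16.48 and hsp-16.49 over 429 bp. hsp-16.2 was 90.6% identical to hsp-16.1, and hsp-16.41 was 92.1% identical to hsp-16.48.

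These pairs are copies of each other in an inverted repeat. Its arms run from 9086849 to 9088741 and from 9089156 to 9091048 on chromosome V, each 1893 bp long, and they differed at 2 bases (99.89% identity), with 414 bp between them. All 4 genes and both promoter intervals lie inside the arms. No summit fell in either arm in any of the 4 thresholded lists or the 3 ranked lists. The genome as a whole had 0.0414 peaks per kb in the conservative list and 0.519 per kb in the longest ranked list. No test was made of the zeros in the arms. They depend on the arm edges and on counting summits. A ranked peak of replicate 2, with a score of 59, had its summit at 9086848, right beside the left arm. That peak and some others reached into an arm with part of their length. In the 414 bp between the arms there was 1 conservative summit, with 1 in the other thresholded list, 2 in replicate 1 and 0 in replicate 2.

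The peak between the arms lay between the 3′ ends of hsp-16.48 and hsp-16.49, which are read towards each other. It ran from 9088729 to 9089058 with a summit at 9088894, a score of 933 and a signal of 118.4, number 3492 of 4149, in the lower part of the list at 84.2%. It entered the windows of hsp-16.1 and hsp-16.11 only through their upstream 2000 bp, with summits 1112 and 1183 bp upstream. Replicate 1 had 2 peaks there, with signals of 68.25 and 26.72, at numbers 2332 and 3198 of 3340. Replicate 2 had a ranked peak from 9088849 to 9089164 with a score of 822, under the threshold.

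**Figure D2:**
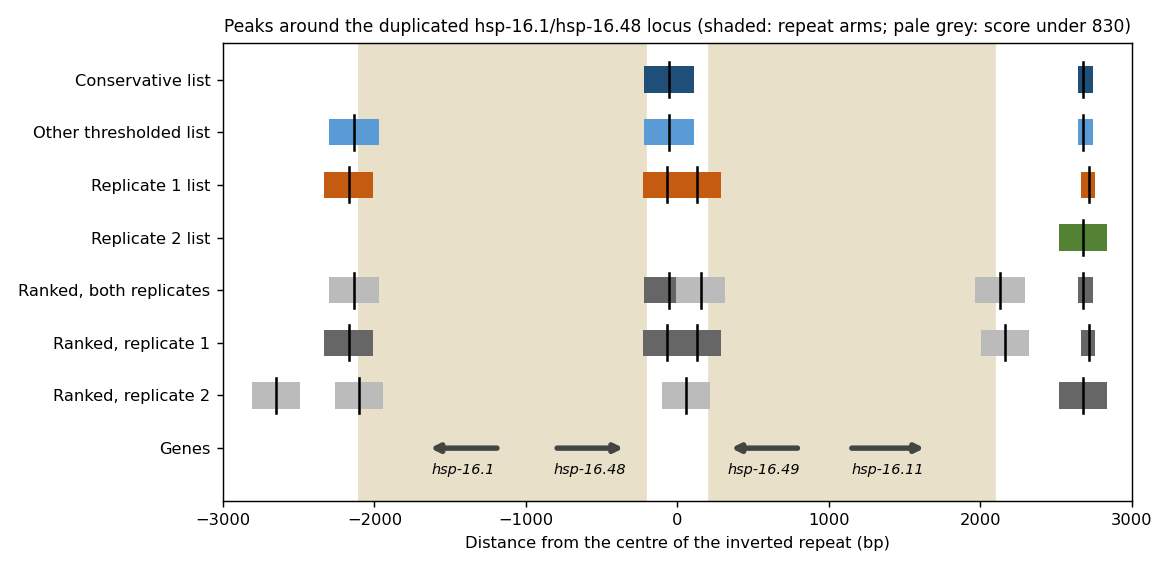
Peaks (bars) and summits (black lines) around the duplicated hsp-16.1/hsp-16.48 locus in all 7 lists, by distance in bp from the centre of the inverted repeat, with the arms shaded. Pale grey bars are ranked peaks with a score under 830, and no summit falls inside an arm in any list.

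Peaks also stood just outside the arms, near small RNA genes. Upstream of hsp-16.49 the conservative list had a peak of 103 bp from 9091594 to 9091696, with its summit 1861 bp upstream, a signal of 176.8 and number 2654 of 4149. That summit lay in an exon of the non-coding RNA gene T27E4.15 and 4 bp from the snRNA gene T27E4.12. The replicates' summits were 1900 bp upstream in replicate 1, at number 1602 of 3340, and 1860 bp upstream in replicate 2, at number 3715 of 5333. On the opposite side, upstream of hsp-16.48, the other thresholded list had a peak with its summit 1314 bp upstream, 41 bp from the snRNA gene T27E4.11. Its signal was 93.97 and its number 4764 of 6058. Replicate 1 had that peak at number 2583 of 3340, while the conservative list and replicate 2 did not.

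The bases between the 5′ ends in the duplicated pairs occur more than 1 time in the genome, which touches how these results can be read. Of the 50-base stretches in both intervals, 100% had a copy elsewhere, against 1.66% for F44E5.4/F44E5.5 and 0% for hsp-16.2/hsp-16.41. Reads from identical copies cannot be assigned to 1 place, and how the authors treated such reads is not given in the sources used here. Over the genome, 300 genes have upstream 250 bp made wholly of repeated 50-base stretches, and 4 of them are the hsp-16 genes of this locus. None of the 300 had a summit in those 250 bp in any thresholded list. Of the other 19673 genes, 1033 (5.25%) did in the conservative list. In the ranked list over both replicates the counts were 4 of the 300 (1.33%) and 4053 of the 19673 (20.6%). Of all conservative summits, 183 (4.41%) stood on a repeated 50-base stretch, against 6.49% of the positions of the genome. The lack of a listed peak at hsp-16.1, hsp-16.11, hsp-16.48 and hsp-16.49 is therefore not a measurement that HMG-1.2 is absent there.

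hsf-1 had no peak in the conservative list or in replicate 1. The gene lies on chromosome I at 11953507 to 11963085 on the minus strand, and the closest conservative summit was 7026 bp upstream of its 5′ end. The other thresholded list had a peak whose summit was 1957 bp upstream, with a signal of 92.74, number 4809 of 6058. Replicate 2 had one with its summit 1983 bp upstream, a signal of 61.5 and number 4854 of 5333. The same place had a score of 814 in the ranked list over both replicates and of 473 in that of replicate 1. Near the 5′ end itself, the ranked list over both replicates had a summit 36 bp upstream with a score of 443. The scores there were 72 in replicate 1 and 137 in replicate 2, all below the lowest listed score of 830.

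**Figure D3:**
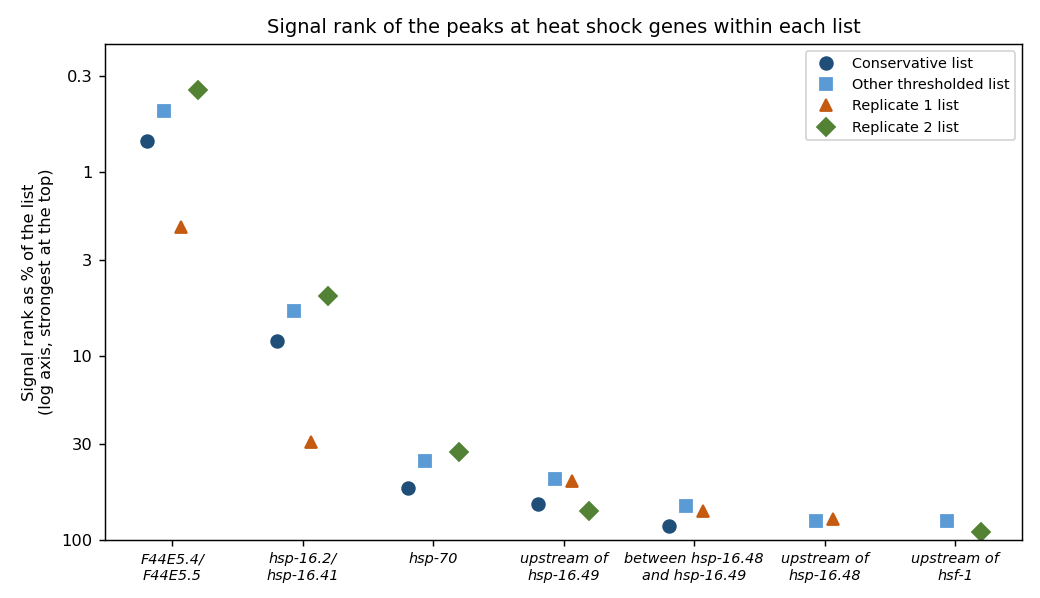
Place of each peak at a heat shock gene within its list, as a percent of the list on a log axis with the strongest peaks at the top; symbols mark the 4 thresholded lists. The F44E5.4/F44E5.5 peak is in the top 1.98% or higher in every list, and the peaks around the duplicated hsp-16 genes and upstream of hsf-1 lie at 46.5% or further down.

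Nearly all of these promoters hold heat shock elements, which is background knowledge for heat-inducible genes and was counted here. From 250 bp upstream to 50 bp downstream of the 5′ end, 9 of the 10 genes had a match to GAANNTTC or TTCNNGAA, all but hsf-1, against 6495 of 19973 promoters (32.5%). A longer element of 3 alternating repeats was in the same 9 promoters, against 393 of all promoters (1.97%). The word TATAAA on the gene's strand was in 6, against 24.1% of all promoters. F44E5.4 and F44E5.5 had 10 matches each in this window, some of them in both genes' windows, and 14 different matches lay within their peak. hsp-16.2, hsp-16.41, hsp-16.1 and hsp-16.11 had 4 each, and hsp-70, hsp-16.48 and hsp-16.49 had 3 each. The 4 of hsp-16.2 and the 4 of hsp-16.41 are the same places. hsp-16.1 also shares matches with hsp-16.48, and hsp-16.11 with hsp-16.49, and these pairs are copies of each other. The 9 promoters are therefore not 9 separate regions. In the 500 bp upstream, hsf-1 had a match too, as did 48.3% of all promoters.

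Promoters with the longer element did not all carry HMG-1.2. Of the 384 other genes with an element of 3 repeats, 49 (12.8%) had a promoter summit in the conservative list, against 9.68% of all protein-coding genes. Among those 384 genes, 68 (17.7%) had one in the other thresholded list, against 13.7% of all genes. Replicate 1 gave 35 (9.11%), against 6.91%, and replicate 2 gave 63 of the 384, against 13.3%. In each of the 4 lists the share was above that of all genes. These differences were not tested. Of all conservative peaks, 232 (5.59%) had a match within 50 bp of the summit. At the heat shock genes the F44E5.4/F44E5.5 summit had 3 such matches, the hsp-70 summit 1 and the hsp-16.2/hsp-16.41 summit 0.

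At both divergent pairs the summit stood in the gap between clusters of heat shock elements rather than on one. Between F44E5.4 and F44E5.5 the gap was 76 bp, between a cluster of 4 matches and one of 2. The summit was -2.5 bp from the middle of the gap in the conservative list and in replicate 2, and 0.5 bp from it in replicate 1. Between hsp-16.2 and hsp-16.41 the gap was 141 bp, between clusters of 2 matches each. The summit was -1.0 bp from its middle in the conservative list, 0.0 bp in replicate 1 and 12 bp in replicate 2. At hsp-70 the gap was 99 bp, between 2 matches and 1 match, and the summit was 21 bp from its middle in the conservative list and 18 bp in replicate 2. These distances were looked at after the summits were seen, and fragments were sonicated to a listed range of 200 to 800, wider than the gaps.

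The bases around the 3 promoter summits had a composition near that of other peaks. Within 50 bp either side, A and T made up 53.5% at F44E5.4/F44E5.5, at hsp-16.2/hsp-16.41 and at hsp-70. The median of all conservative peaks was 51.5%, with quartiles of 45.5% and 56.4%. The peak between the duplicated hsp-16 genes was richer in A and T, at 62.4%, above 91.8% of conservative peaks or equal to them. The peak upstream of hsp-16.49 had 45.5%.

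Distances from the conservative summit to the start codon, where translation begins, spanned 173 to 231 bp, and those to the annotated 5′ end spanned 81 to 178 bp. The conservative summit was 231 bp before the start codon of F44E5.4, 216 bp before that of F44E5.5, 173 bp for hsp-16.2, 174 bp for hsp-16.41 and 182 bp for hsp-70. The heat shock element closest to the start codon began 108 bp before it at F44E5.4 and F44E5.5, 98 bp at hsp-16.2, 97 bp at hsp-16.41 and 106 bp at hsp-70. At hsp-16.1 and hsp-16.11, with no promoter peak, it began 91 bp before. At hsp-16.48 and hsp-16.49, also with none, it began 7 bp before, as a single match that runs into the start codon. The other matches of hsp-16.48 and hsp-16.49, which form their element of 3 repeats, began at -111 and -106 bp from the start codon. The annotated 5′ ends of hsp-16.1, hsp-16.48 and hsp-16.49 are the start codons themselves, and none of the 5′ ends was checked against measured transcription starts.

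Other genes of the chaperone network were counted in 3 lists, of which the first holds genes whose proteins bind or regulate HSF-1. In the conservative list 5 of 7 such genes (71.4%) had a promoter summit, against 9.68% of all protein-coding genes. Of these 5, only hsb-1 is not also in the list of constitutive and organelle chaperones. The other thresholded list gave 5, against 13.7%, replicate 1 gave 4, against 6.91%, and replicate 2 gave 5, against 13.3%. sti-1, an Hsp90 co-chaperone, had a signal of 2799, number 38 of 4149, 85 bp upstream. hsb-1, a negative regulator that binds HSF-1, had 890.4, number 416, 179 bp upstream. dnj-13, an Hsp40 protein that works with Hsp70, had 385.7, number 1277, and hsp-110, a nucleotide exchange factor of Hsp70, had 323.2, number 1547. ddl-1 and ddl-2, whose proteins form a complex with HSB-1 and HSF-1, had no promoter summit in any of the 4 lists.

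Constitutive and organelle chaperones had promoter summits at 13 of 19 genes (68.4%) in the conservative list, against 9.68% of all genes. The other thresholded list gave 14, against 13.7%, replicate 1 gave 10, against 6.91%, and replicate 2 gave 13, against 13.3%. The genes hsp-1, hsp-110, sti-1 and dnj-13 are in both lists, and all 4 had a conservative promoter summit, so they are counted in each. hsp-3, an Hsp70 of the endoplasmic reticulum, had a signal of 1046, number 314, and unc-45, a chaperone of muscle myosin, had 790.2, number 497. Those with none in the conservative list were hsp-4, hsp-60, hsp-75, daf-41, pph-5 and chn-1, of which chn-1 had one in the other thresholded list and in replicate 2.

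Other small heat shock protein genes gave 1 promoter summit among 11 in the conservative list (9.09%), close to the 9.68% of all genes. The other thresholded list gave 2 (18.2%), against 13.7%, replicate 1 gave 1 (9.09%), against 6.91%, and replicate 2 gave 2 (18.2%), against 13.3%. The 1 gene was F08H9.3, number 285 of 4149 by signal, with a summit 74 bp upstream in the conservative list and in both replicates. It was number 114 of 3340 in replicate 1 and number 815 of 5333 in replicate 2, and its conservative peak held 1 heat shock element. The others had none in the conservative list, namely hsp-12.1, hsp-12.2, hsp-12.3, hsp-12.6, hsp-17, hsp-25, hsp-43, sip-1, F08H9.4 and ZK1128.7. ZK1128.7 had one in the other thresholded list and in replicate 2.

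**Figure D4:**
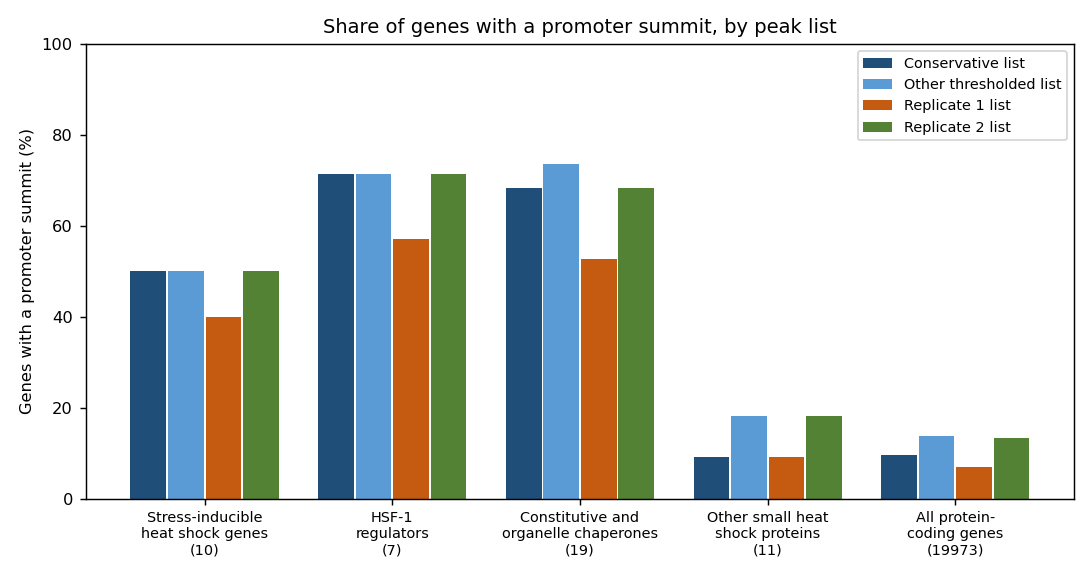
Share of genes with a promoter summit, in percent, for the 10 stress-inducible heat shock genes, 3 chaperone lists and all 19973 protein-coding genes, with a bar for each of the 4 thresholded lists. The heat shock genes stand at 5, 5, 4 and 5 of 10 in the order of the legend, and 4 of the 10 have an upstream region made wholly of repeated 50-base stretches.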

How the data were processed

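Peaks from 2 ChIP-seq replicates of 1 group were analysed as deposited, in the ce11 build per the labels. Neither the aligner nor the peak caller is given in the sources used here. The deposited notes name alignments of the replicates and a control, plus a further unnamed file for thresholded lists, and the lists over both replicates use both. The deposited score is based on the irreproducible discovery rate and capped at 1000. The ranked list over both replicates has a deposited −log10 of that rate, at least 2 wherever the score reached 830. The deposited signal has no stated scale and was used within 1 list. The authors' deposited summit offset was added to the peak start. Read totals are not in the lists, which leaves the depth unknown, so intervals that need a depth are not given.

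Peaks were set against Ensembl release 115 genes with Python 3.11.15, pandas 2.3.3, numpy 2.4.6 and Biopython 1.88, with 1 bp of overlap as the minimum. Ensembl gives hsp-16.11 and hsp-16.49 the symbols hsp-16.1 and hsp-16.48, so these were matched by their RefSeq position. Repeated sequence was sought as 50-base stretches on both strands of the genome. The promoter and wider-window calls were tested on simulated data, and the divergent pair calls were not. The genes and chaperone lists were chosen with earlier results of these data known. The text names all 10 genes, genes that share their peaks or windows, up to 4 genes of highest signal in each chaperone list, and those counted as having none. Of the chaperone lists, 7 of 8, 11 of 11 and 19 of 20 names were matched. No match was found for the name daf-21, which was in the HSF-1 regulator list and the constitutive and organelle list. It is therefore missing from the counts over 7 and 19 genes. Alternatives were other lists, windows, overlap rules and assignments.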

Additional observations from a re-analysis of the deposited data

How the results depend on the processing

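Without replicate 1 or replicate 2, the genes with a peak in the wider window numbered 7 to 8 of 10, those with a promoter summit 4 to 5, and the divergent pairs with a summit 2 to 2. Using only the upper 50% of conservative peaks by signal left 4 genes with a peak in the wider window, in place of 8. That setting also left 4 genes with a promoter summit, in place of 5, without hsp-70. Giving each summit to the nearest 5′ end only left 3 genes with a promoter summit, in place of 5, because each shared peak then counts for 1 gene. With 1000 bp upstream, 6 genes had a peak in the wider window. The promoter counts from narrower and wider windows, and from the gene's own 5′ end, were 5. Adding back the 24 ranked peaks that pass the lowest score but are not listed changed no count. The 2 pairs were the same under every alternative tried. Replicate summits moved distances by up to 13 bp. No paired analysis was possible because there is 1 group and no comparison between groups. The unknown depth limits what the absence of a peak can show.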
